A study of Mus musculus with 3 samples.

Results

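Cflar, Fadd, Tradd, Casp2, Casp6, Casp9 and Xiap, 7 genes of the death receptor and caspase pathway, were followed in RNA bound to chromatin in mouse macrophages. They were taken by symbol from the identifiers of the deposited transcript tables, and all 7 were found, with 1 gene identifier each, among 55536 genes (22028 of them protein-coding). The libraries were total RNA-seq, depleted of ribosomal RNA, from bone-marrow-derived macrophages of the strain C57BL/6J, which are primary cells. All 3 libraries, biological replicates 1, 2 and 3, came from cells given 100 ng/ml Lipid A for 60 minutes, and Lipid A is the membrane anchor of bacterial lipopolysaccharide, sensed by Toll-like receptor 4. Replicate 1 was made from 1 µg of RNA, replicate 3 from 500 ng and replicate 2 from 250 ng, so that input and library cannot be told apart. The labels give the same donor entry for all 3 and do not say whether the cultures came from separate animals, and the spread between libraries may then be partly technical. No unstimulated sample was analysed here, so every comparison is made between genes or isoforms within a library, and none is an effect of Lipid A.

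Tumour necrosis factor and related ligands bind death receptors, which recruit adaptor proteins. TRADD joins the TNF receptor, and FADD brings in procaspase-8, which cuts itself and then activates executioner caspases, the class to which caspase-6 belongs. The protein of Cflar, also called c-FLIP, is built like caspase-8 but lacks its cutting activity, and it pairs with caspase-8 at FADD to hold the death signal back. A long form keeps the caspase-like part and a short form keeps only the death effector domains that bind FADD. Caspase-9 is the initiator of the mitochondrial route, started by APAF1 and cytochrome c, and caspase-2 is an initiator linked to PIDD1 and CRADD. XIAP blocks caspase-9 and some, not all, executioner caspases. In macrophages NF-kB targets, Cflar among them, are known to be part of the response to Toll-like receptor 4.

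The coding sequences of the annotated transcripts show where Cflar departs from the caspases. The stretches that follow run 5′ to 3′ from the GENCODE M21 transcripts (mm10, plus strand) and were aligned on residues that all these proteins share just upstream. Capitals mark the codon of the catalytic cysteine in the caspases and the codon at the same place in Cflar.
Casp2-201, chr6:42276749-42276784: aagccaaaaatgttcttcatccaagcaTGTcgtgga
Casp6-201, chr3:129910675-129912129 (split by an intron): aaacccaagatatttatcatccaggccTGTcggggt
Casp9-201, chr4:141807226-141807261: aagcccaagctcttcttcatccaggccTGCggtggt
Cflar-205, chr1:58752596-58752631: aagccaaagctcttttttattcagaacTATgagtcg
The 3 caspase members carry a cysteine codon, TGT or TGC, at codon 320 of Casp2-201, codon 146 of Casp6-201 and codon 325 of Casp9-201. Cflar-205 carries TAT, a tyrosine codon, at codon 362, and the active-site pattern found once in each of the caspases was found 0 times in its reading frame.

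The long and short coding isoforms of Cflar part at the end of a shared exon. The isoform result given further on rests on the deposited TPM of whole isoforms, and reads across this junction were not counted. In the next pair of sequences the lower-case bases are the last ones of the shared exon (chr1:58732303-58732326), and the capitals are what follows in each isoform.
Cflar-205, capitals from chr1:58735658-58735693: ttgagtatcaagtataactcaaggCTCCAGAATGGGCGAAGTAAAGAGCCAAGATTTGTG
Cflar-204, capitals from chr1:58732327-58732362: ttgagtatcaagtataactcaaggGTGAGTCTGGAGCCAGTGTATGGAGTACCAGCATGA
Cflar-205 is spliced to its next exon and reads on to 481 codons. Cflar-204 runs straight on into the intron, where the reading frame meets the stop codon TGA that ends the capitals, and codes for 215 codons. Its last exon goes on to position 58733227, 901 bases past the shared part.

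The members fell into a pair of abundant genes, the brake Cflar and the caspase inhibitor Xiap, and 5 genes with 10 to 80 counts per library, the adaptors and the caspases. Levels are TPM of the deposited gene table, a transcript's share of its library scaled for its length, in which the number of cells and the RNA per cell cannot be told apart. Cflar stood at 316.48 TPM in replicate 1, 372.59 in replicate 2 and 336.3 in replicate 3 (341.8 ± 28.5, SD, n = 3), rank 77 of the 22028 coding genes. Xiap stood at 41.7, 50.69 and 51.93 TPM in the same order (48.1 ± 5.58), rank 942. The lowest Cflar value was above the highest Xiap value, and Xiap in turn lay above every other member in each library. With detection set at 1 TPM or more in each library, 3 of the 7 members were detected, Cflar, Xiap and Tradd, against 35.7% of coding genes. This split depends on the scale of TPM. With TPM rescaled over protein-coding genes, mean log2(TPM + 1) went from 0.93 to 2.35 for Fadd and from 0.93 to 2.36 for Casp6. It went from 1.11 to 2.63 for Casp9 and from 0.69 to 1.91 for Casp2. Detection was not recounted on that scale, for the members or for coding genes.

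**Figure D1:**
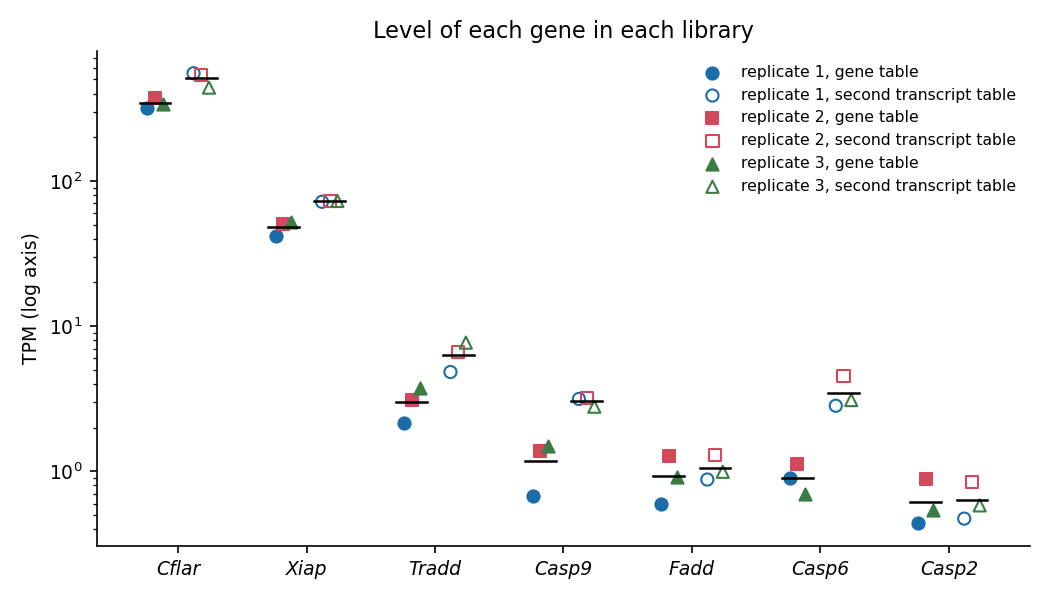
TPM of the 7 genes on a log axis, in the gene table (filled symbols) and summed over isoforms in the second transcript table (open symbols), with 1 symbol per library and a bar at the mean of 3. Cflar at 341.8 TPM and Xiap at 48.1 stand above the adaptors and caspases in both tables, and Tradd, Casp9 and Casp6 lie higher in the second table than in the first.

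Cflar, the brake, lies at chr1:58711508-58758884 on the plus strand. Its expected counts were 20720, 21885 and 21174, so counting error was small: in replicate 1 the exact Poisson interval at 95% ran from 312.2 to 320.8 TPM. Intervals of this kind cover counting error only. The order of the libraries depended on the scale. By TPM, replicate 1 was lowest, and by CPM (counts scaled to the library's gene counts, with no correction for length) it was highest, with 1556, 1425 and 1339. Replicate 1 was lowest by TPM for 6 of the 7 members and for 75.45% of the 8640 coding genes with a mean of at least 1 TPM, and by CPM for 4 members and 32.6% of those genes. The coding genes whose levels over the 3 libraries came closest to those of Cflar were Lcp1, an actin-bundling protein of white blood cells, Znrf1, a ubiquitin ligase, and Luc7l2, a splicing factor. Their Euclidean distances from Cflar in log2(TPM + 1) were 0.0876, 0.0908 and 0.0969 over 3 libraries, and their means were 344.5, 348.4 and 352.4 TPM.

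Part of what is counted for Cflar has a second possible source. Gm9845, a processed pseudogene at chr3:39358306-39358903 on the minus strand, is 598 bases long, and every base of it was found as 1 unbroken run, across 4 spliced exons, in the coding part of Cflar-201, Cflar-204 and Cflar-205. It was picked out after values were seen, as the gene that shares the most 31-base words with Cflar, 568 of the 1198 that Cflar shares with any other gene out of 12748. Gm9845 was listed at 73.05, 61.0 and 65.04 TPM in the gene table, with 529, 359 and 397 expected counts. A read that lies wholly inside these bases fits both genes, and how the deposited tables divided such reads was not tested. Gm9845 held 2.49%, 1.61% and 1.84% of the summed expected counts of both genes, and 4.52%, 4.46% and 4.86% of their summed estimated counts in the second transcript table.

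Cflar has 13 annotated isoforms, 4 of them protein-coding, 1 retained-intron and 8 processed transcripts (RNAs without an annotated reading frame). Coding isoforms held 65.45%, 63.92% and 65.54% of its TPM in the first transcript table (65.0% ± 0.91, SD, n = 3), and the 3 libraries lay within a narrow range. Over all coding genes the same class held 48.2% ± 1.49 of the TPM and retained-intron isoforms 39.3% ± 1.65, whereas the retained-intron share of Cflar was 10.9% ± 0.775 and that of its processed transcripts 24.1% ± 0.638. These are descriptions of summed TPM, in which abundant genes weigh most. In the second transcript table the coding share of Cflar was 55.3% ± 1.08 and the processed share 37.2% ± 1.72, against 45.6% and 16.0% over all coding genes in that table.

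**Figure D2:**
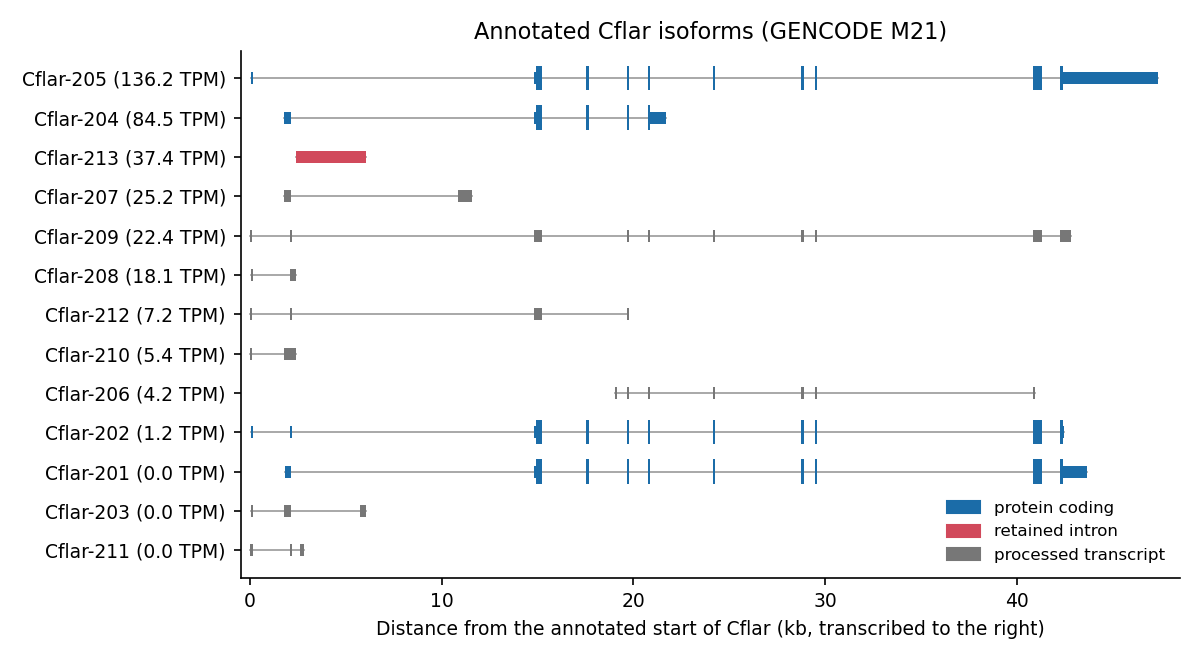
The 13 isoforms of Cflar drawn to scale by distance in kb from the annotated start of the gene, in the order of mean TPM in the first transcript table, with tall boxes for coding exons, low boxes for other exons and lines for introns. Cflar-204 ends inside the gene, and Cflar-213 is a single block before the first coding exon.

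Cflar-205, the long coding isoform, led with 125.5, 140.88 and 142.16 TPM (136.2 ± 9.27), or 39.9% of the gene. The short coding isoform Cflar-204 followed with 80.08, 95.94 and 77.44 TPM (84.5 ± 10.0), or 24.7%. The lowest long value was above the highest short value. The log2 ratio of the summed coding isoforms of at least 400 codons to those under 300 codons was 0.66, 0.57 and 0.88 (mean 0.70 ± 0.16, n = 3), positive in 3 of 3 libraries. The exact two-sided sign-flip permutation test gave p = 0.25, which is the smallest p that 3 libraries allow. In the second transcript table the ratio was 1.07 ± 0.15, again with p = 0.25 by the same exact test. The short form made up 38.0% ± 2.63 of coding Cflar TPM in the first table and 32.3% ± 2.36 in the second. The bases that set Cflar-204 apart also lie in unspliced Cflar RNA, and in a chromatin fraction spliced short isoform and unspliced precursor cannot be told apart from these tables.

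The same holds for Cflar-213, the only isoform of the gene annotated as retained-intron, which was named for that class and not by its level. It is a single exon of 3677 bases at chr1:58713886-58717562, 100% of them outside coding exons, and it lies before the first coding exon, so its bases too are carried by any unspliced transcript begun upstream of it. It had 31.8, 43.11 and 37.2 TPM in the first table and 37.57, 40.96 and 36.07 in the second. Other isoforms moved widely between the tables. Cflar-202, a coding isoform of 484 codons, had a mean of 1.24 TPM in the first table and 64.2 in the second, and the processed transcript Cflar-206 had 4.18 and 76.0. Both were picked out after values were seen. Cflar-205 and Cflar-204 remained the leading pair in both tables.

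**Figure D3:**
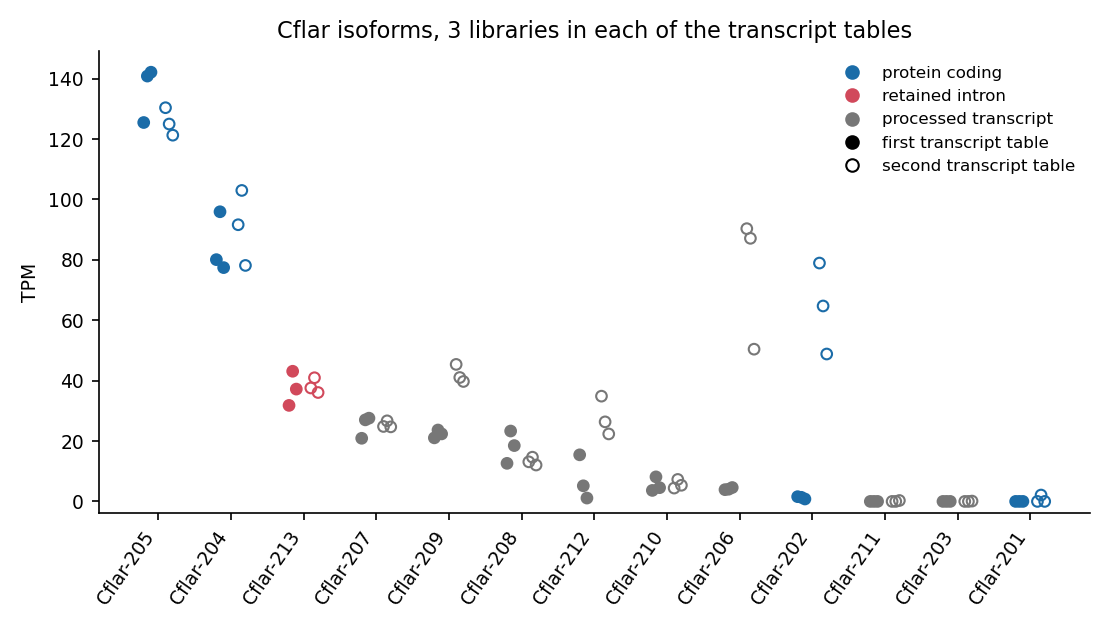
TPM of each Cflar isoform in each of the 3 libraries, filled for the first transcript table and open for the second, coloured by annotated type. Cflar-205 and Cflar-204 lead in both tables, while Cflar-202 and Cflar-206 are near 0 in the first and reach 78.95 and 90.34 TPM in the second.

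Among the adaptors, Tradd and Fadd were far below Cflar. Tradd, which links the TNF receptor to the kinase RIPK1, lies at chr8:105258286-105264609 on the minus strand and had 2.17, 3.12 and 3.74 TPM (3.01 ± 0.791), from 48, 56 and 66 expected counts. Fadd, the adaptor that binds caspase-8 and Cflar, lies at chr7:144577318-144582463 on the minus strand and had 0.6, 1.28 and 0.91 TPM (0.93 ± 0.340), from 41, 80 and 57 counts. Over all isoforms, coding or not, mean Cflar was 113.6 times mean Tradd and 367.5 times mean Fadd.

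Fadd has 1 annotated isoform, and the antisense gene Faddos covers 4195 bases of its span on the other strand. Faddos was listed at 0.92, 0.98 and 0.92 TPM, from 14, 13 and 13 counts, and because it is not known whether the authors counted by strand, reads of Fadd and Faddos cannot be told apart with certainty. Tradd has 4 isoforms. Its coding isoform Tradd-201 held 1.6, 1.97 and 2.25 TPM, and the retained-intron isoform Tradd-204 held 0.57, 0.72 and 0.93 TPM, from 4, 4 and 6 counts. In the second transcript table the means were closer, 2.17 TPM for Tradd-201 and 2.03 TPM for Tradd-204.

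The initiator caspases were likewise far below Cflar. Casp9, at chr4:141793612-141815976 on the plus strand, had 0.68, 1.38 and 1.5 TPM (1.19 ± 0.443), from 36, 54 and 63 counts. Casp2, at chr6:42264985-42282508 on the plus strand, had 0.44, 0.88 and 0.54 TPM (0.62 ± 0.231), from 10, 22 and 20 counts. Replicate 1 was the lowest library for both. With 10 counts the exact 95% Poisson interval of Casp2 in replicate 1 ran from 4.80 to 18.4 counts and overlapped that of replicate 2 (13.8 to 33.3). The executioner caspase Casp6, at chr3:129901425-129914103 on the plus strand, had 0.9, 1.12 and 0.7 TPM (0.907 ± 0.210), from 23, 37 and 26 counts, and replicate 3 was its lowest.

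Counts this small divide thinly over isoforms. For Casp9, the coding isoform Casp9-201 had 26, 35 and 48 counts and the processed transcript Casp9-204 had 10, 16 and 12. The second transcript table put Casp9-205, a processed transcript of 331 bases listed at 0 in the first table, above both, at a mean of 1.67 TPM against 0.893 for Casp9-201. For Casp6, the coding isoform Casp6-201 had 9, 16 and 9 counts. Casp6-204, a single retained-intron exon of 3914 bases, 3908 of them outside coding exons, had 11, 21 and 17 counts and so held more counts, though less TPM (0.257 against 0.537), than the coding isoform. The second table led with Casp6-202 at 1.04 and Casp6-204 at 0.994 TPM. For Casp2, the retained-intron isoform Casp2-204 had 5, 13 and 9 counts and the coding isoform Casp2-201 had 3, 6 and 8, and in the second table Casp2-204 led at 0.155 TPM, before Casp2-203 at 0.120. Casp9-204, Casp6-204 and Casp2-204 all hold intron bases of the coding isoforms. Unspliced RNA carries these bases too, so these isoforms and unspliced precursor cannot be told apart here. Casp9 shares 1015 bases on the opposite strand with Cela2a and Ctrc, both listed at 0 in the gene table, and the small nucleolar RNA gene Gm25108 inside Casp2 was listed at 0 there as well.

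Xiap, the caspase inhibitor, lies at chrX:42059679-42109656 on the plus strand and had 3003, 3383 and 3488 counts. By TPM its most abundant isoform was not a coding one. The processed transcript Xiap-206, 1817 bases long with 76.5% of them outside coding exons, had 21.93, 26.72 and 26.89 TPM (25.2 ± 2.82). The coding isoform Xiap-201, of 496 codons, had 12.38, 19.31 and 17.17 TPM (16.3 ± 3.55). Xiap-206 was above Xiap-201 in each library and its lowest value was above the highest of Xiap-201. Most of its bases outside coding exons lie before the first coding exon, in an intron of the coding isoforms Xiap-203 and Xiap-204. Unspliced RNA begun upstream carries these bases too, so Xiap-206 and unspliced precursor cannot be told apart from these tables. The 639 bases of Xiap-201 found in no other isoform also lie in an intron of Xiap-203 and Xiap-204. The same limit therefore touches Xiap-201. Processed transcripts together held 52.59%, 52.7% and 51.78% of Xiap TPM (52.4% ± 0.502), against 8.88% over all coding genes, and 70.8% ± 0.908 in the second table, against 16.0% over all coding genes there, where Xiap-206 (24.8 TPM) and Xiap-208 (17.8 TPM) led. By expected counts the order was the other way, 650, 712 and 725 for Xiap-206 and 1508, 2165 and 1937 for Xiap-201, which is 6834 bases long. Xiap shares 221 of its 9595 31-base words with the pseudogene Gm17791, which was listed at 0.

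In the order of mean TPM the members ran Cflar, Xiap, Tradd, Casp9, Fadd, Casp6, Casp2. Neighbours were compared within each library as differences of log2(TPM + 1). Cflar was above Xiap by 2.81 ± 0.12 (SD, n = 3), Xiap above Tradd by 3.63 ± 0.14 and Tradd above Casp9 by 0.88 ± 0.07, each in 3 of 3 libraries. Casp9 was above Fadd by only 0.17 ± 0.19, which is within its spread, and Casp6 above Casp2 by 0.24 ± 0.14, both again in 3 of 3 libraries. Fadd and Casp6 differed by 0.01 ± 0.22 and changed places in replicate 1. The exact two-sided sign-flip permutation test gave p = 0.25 for 5 of the 6 pairs (0.3 after Benjamini-Hochberg adjustment over 6 pairs) and p = 1 for Fadd and Casp6, and no pair could have gone below 0.25. On the linear scale, over all isoforms, coding or not, Cflar was 7.59, 7.35 and 6.48 times Xiap in the 3 libraries.

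The spread between libraries was measured as edgeR's biological coefficient of variation of the rounded expected counts, for which the common value over 12505 genes was 0.181. The gene-wise values are edgeR's moderated estimates, drawn towards those of other genes, so they are not a measure of 1 gene's own spread. They were 0.154 for Cflar and 0.15 for Xiap, where 22.6% and 17.5% of genes had a lower value. By CPM the mean and SD over the 3 libraries were 1440 ± 109.1 for Cflar and 222.1 ± 2.89 for Xiap. For the 5 low genes the moderated value ran from 0.183 in Casp6 to 0.206 in Fadd. Without replicate 2 the common value was 0.125, and without replicate 1 or replicate 3 it was 0.195 or 0.206.

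The rest of the pathway showed where the members sit, over 48 further genes in 9 role lists. At 1 TPM in all 3 libraries 35 of the 48 were detected in the gene table. The median over the 48 was 11.3 TPM, against a median of 1.19 TPM for the 7 members. Of the ligands, Tnf, tumour necrosis factor itself, stood at 343.71, 490.94 and 448.47 TPM (427.7 ± 75.8), near Cflar, while Fasl was listed at 0 in each library and 1 of 4 ligands was detected. Of the receptors, 3 of 6 were detected, from Tnfrsf1b at 139.8 TPM down to Tnfrsf25, listed at 0. Fas was at 10.9 TPM and the TNF receptor Tnfrsf1a at 8.04 TPM. Among adaptors and kinases 7 of 8 were detected, led by Madd at 33.5 TPM and with Pidd1, the partner of caspase-2, lowest at 0.447 TPM.

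**Figure D4:**
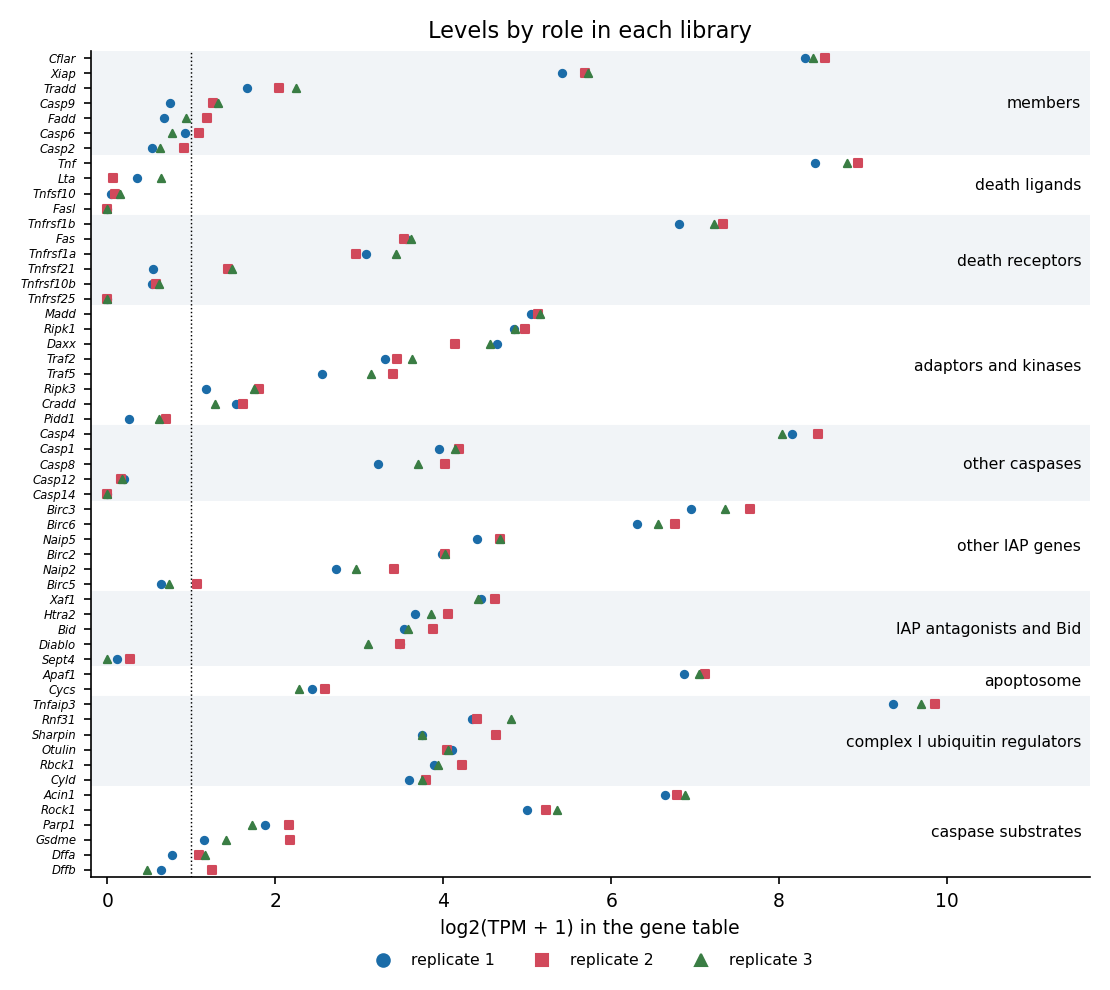
log2(TPM + 1) of the 7 members and 48 further pathway genes in each library, grouped by role, with a dotted line at 1 TPM. Cflar lies with Tnf, Casp4, Birc3 and Tnfaip3 at the high end, while Fadd and caspases 2, 6 and 9 lie around the line or to its left.

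Among the other caspases the spread was wide. Casp4, the sensor of lipopolysaccharide inside the cell, stood at 283.7, 351.79 and 260.93 TPM (298.8 ± 47.3), and Casp14, a caspase of skin, was listed at 0. Casp8, the partner of Cflar, had 8.33, 15.26 and 11.99 TPM (11.9 ± 3.47). Over all isoforms, coding or not, Cflar was 38.0, 24.4 and 28.1 times its partner in the 3 libraries. Coding isoforms alone had means of 221.9 TPM for Cflar and 11.86 TPM for Casp8. Of the inhibitor of apoptosis genes besides Xiap, 5 of 6 were detected, from Birc3 at 161.7 TPM, above Xiap, to Birc5 at 0.77 TPM. Apaf1, on which caspase-9 is activated, had 115.41, 137.32 and 130.76 TPM (127.8 ± 11.3) and lay above Casp9 in every library. Its partner Cycs had 4.44 TPM. The IAP antagonists and Bid, with 4 of 5 detected, ran from Xaf1 at 21.5 TPM to Sept4 at 0.0933 TPM. All 6 regulators of ubiquitin chains at the TNF receptor were detected, from Tnfaip3, the deubiquitinating enzyme A20, at 800.5 TPM to Cyld at 12.2 TPM. Of the caspase substrates 4 of 6 were detected, with Acin1 highest at 108.0 TPM and Dffb lowest at 0.77 TPM.

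Whether a gene's chromatin RNA was assigned to retained-intron or to coding isoforms was tested with limma, as log2((retained-intron TPM + 0.5)/(coding TPM + 0.5)) over 5601 genes, with Benjamini-Hochberg adjustment over all of them. Retained-intron isoforms were above coding ones in 35.5% of these genes and below in 31.9%. With summed expected counts in place of TPM the calls went from 1989 above and 1784 below to 1292 above and 3172 below. Of the 7 members 2 could be tested, and in both, Cflar and Tradd, coding isoforms were above. Cflar had 31.8, 43.11 and 37.2 TPM of retained-intron RNA against 207.15, 238.18 and 220.4 TPM of coding RNA, a log2 ratio of -2.56 (SE 0.13, adjusted p = 1.50e-06 by limma), in the same direction in each library. Its size depended on how the classes were set: it was -0.57 (adjusted p = 0.00451 by limma) with the mean TPM per annotated transcript, of which Cflar has 4 coding and 1 retained-intron, and -0.89 (adjusted p = 0.000366) with all isoforms that are not coding set against the coding ones. The coding RNA of Cflar includes Cflar-204 (80.08, 95.94 and 77.44 TPM), which cannot be told apart from unspliced precursor. The ratio without Cflar-204 on the coding side was not computed. Tradd had 0.57, 1.15 and 1.5 against 1.6, 1.97 and 2.25 TPM, a log2 ratio of -0.67 (SE 0.23, adjusted p = 0.0299 by limma). The call of Tradd was lost when any 1 library was left out (adjusted p from 0.0532 to 0.161) and with no filter on low values (0.0680), and in the second transcript table the ratio was 0.15 with an adjusted p of 0.525. Fadd, Casp9 and Xiap have no annotated retained-intron isoform, and Casp2 and Casp6 were below 1 TPM in the summed classes. In the second transcript table Casp6 passed that filter, with retained-intron isoforms above coding by 0.98 (adjusted p = 0.0018 by limma).

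**Figure D5:**
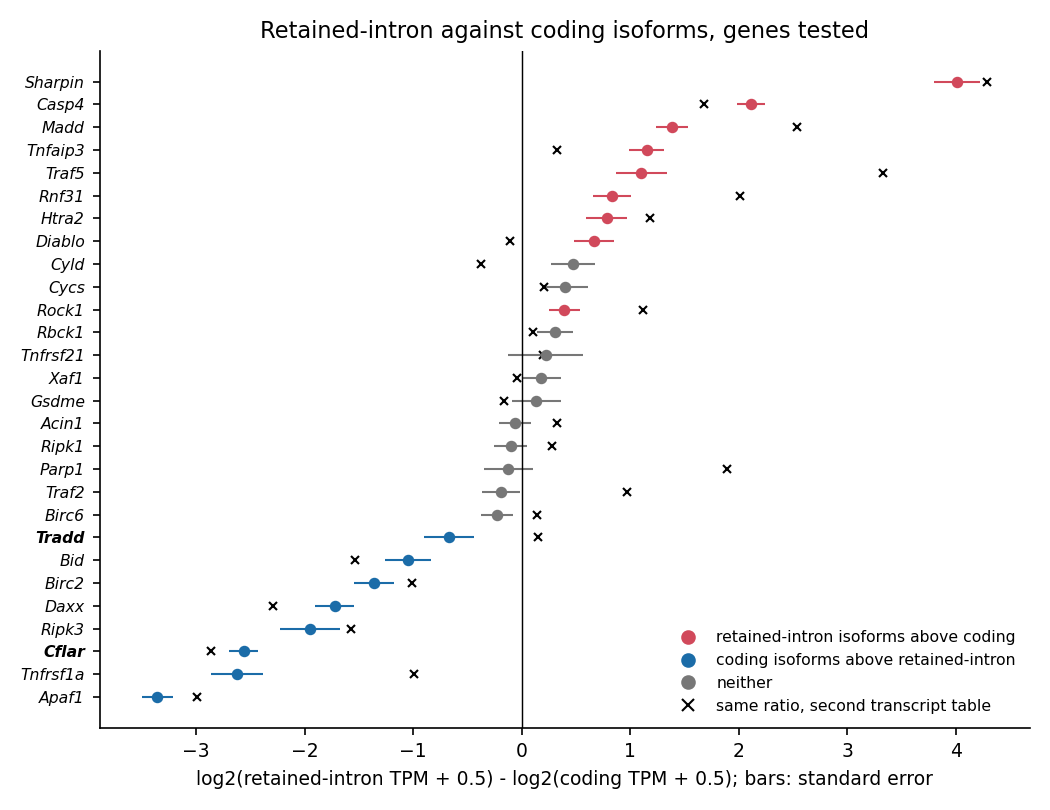
Log2 ratio of retained-intron to coding TPM, with 0.5 added to each, for the 2 members (bold) and 26 further pathway genes tested, as limma estimates with standard errors, and the same ratio in the second transcript table as crosses. Cflar at -2.56 lies near the low end next to Apaf1 and Tnfrsf1a, while Casp4 and Sharpin lie at the high end.

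Of the 48 further pathway genes 26 could be tested, with 9 called for retained-intron isoforms, 6 for coding isoforms and 11 for neither. The coding side held Apaf1 (-3.36), Tnfrsf1a (-2.62), the necroptosis kinase Ripk3 (-1.95), Daxx (-1.72), Birc2 (-1.36) and Bid (-1.05). The retained-intron side held Sharpin, a subunit of the linear ubiquitin ligase, at 4.01, Casp4 at 2.11, Madd at 1.39, Tnfaip3 at 1.15 and Traf5 at 1.10. It also held Rnf31 at 0.83, Htra2 at 0.78, Diablo at 0.67 and Rock1 at 0.39. Sharpin had only 0.0, 0.74 and 0.0 TPM of coding RNA, and Ripk3 only 0.0, 0.0 and 0.39 TPM of retained-intron RNA. The size of both ratios therefore depends on the 0.5 TPM added. Diablo turned to -0.11 in the second transcript table. Casp4 was on the side opposite to Cflar. The median log2 ratio was 0.20 over the 26 and 0.08 over all 5601 genes.

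The choice of quantification moved the members' levels. Summed over isoforms, the second transcript table gave means of 509.9 TPM for Cflar, 72.5 for Xiap, 6.38 for Tradd, 3.48 for Casp6, 3.04 for Casp9, 1.06 for Fadd and 0.633 for Casp2. Each was above its gene table value, and Casp6, at 0.907 TPM in the gene table, went from the sixth place to the fourth. The second table was also higher for most genes, by a median of 0.99 in log2(TPM + 1). Without centring on that median, limma called the second table higher for 5 of the 6 members tested (Fadd not) and for 79.1% of 20351 genes, with 16104 genes higher and 211 lower. After centring it called the gene table higher for Cflar (-0.42, SE 0.11, adjusted p = 0.0243), Xiap (-0.40, SE 0.09, adjusted p = 0.0151) and Fadd (-0.89, SE 0.12, adjusted p = 0.00269), and for 35.2% of all genes, while the second table was higher for 34.8%. Since the sign for Cflar, Xiap and Fadd turns with the centring, no direction relative to other genes is read from it.

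The label of the cells was checked against markers. All 12 macrophage markers were detected, with a summed level from 566.2 to 827.3 TPM per library. In the gene table, 1 of 27 markers of T cells, B cells, neutrophils, erythroid cells, fibroblasts, endothelium, mast cells and basophils was detected (Kdr, 1.95 TPM). There 13 had no count in any library, and the sum ran from 3.5 to 5.66 TPM. The second transcript table also put Pecam1 (mean 7.72 TPM), Ms4a1 (3.05), Cd4 (2.165), Cd8a (1.69) and Col1a1 (1.33) at 1 TPM or more in each library. Apart from these and Kdr, no marker of other cells reached that level in each library. The gene tables held 13318395, 15352661 and 15812581 expected counts in genes in replicates 1, 2 and 3.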

How the data were processed

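RNA of the chromatin fraction of Lipid A stimulated macrophages was measured in 3 libraries. Per the labels the assembly was mm10 and the annotation GENCODE M21, and no aligner, quantifier, version or strand setting is named in what was read for this work. Per the file headers, the authors deposited for every library a gene table and a first transcript table with expected counts and TPM, and a second transcript table with estimated counts and TPM. Column names are those RSEM writes for the first tables and kallisto for the second.

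Genes were joined by identifier, and rows naming no gene (1.4%, 0.352% and 0.354% of expected counts) stayed out of gene totals. Isoform ratios (0.5 TPM added, mean summed TPM of at least 1) and table differences (log2(TPM + 1), centred on the median gene) were fitted with limma 3.58.1 over all genes, intercept only, with Benjamini-Hochberg adjustment at 0.05. On simulated data for 5601 genes the isoform test recovered 72% of changes of 1 and 100% of changes of 2 on the log2 scale, and 8.02% of its calls were false. For the table comparison, over 20351 genes, these were 100%, 100% and 4.76%. Both simulations changed 100 genes at each size, left all others unchanged and drew noise independently. In the data 35.5% of genes were called for retained-intron and 31.9% for coding isoforms, and isoforms share reads, which was not simulated. The simulated rates therefore do not carry over to the calls in these data. Spread came from edgeR 4.0.16 on rounded expected counts, and DESeq2 1.42.0 size factors were an alternative. Gene coordinates, isoform types and sequences came from GENCODE M21.

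Named were all members, their 2 leading isoforms in each transcript table, genes overlapping a member, the 3 coding genes nearest to Cflar, and from each pathway list the highest, the lowest and those called by the isoform test, with exceptions stated or taken from the same lists. The members and lists were chosen with earlier results of these data known. Some genes of the pathway lists are not reported here and are left out of the lists' counts.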

Additional observations from a re-analysis of the deposited data

How the results depend on the processing

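Of the 6 neighbour pairs in the order of the members, 5 or 6 held in each library under the 7 alternatives run. The pair that failed was Fadd and Casp6, except by CPM, which is not scaled for length, where Fadd was above Casp9 in replicates 1 and 2. The short isoform of Cflar stayed below the long ones, and the isoform ratio of Cflar stayed on the coding side under all of its alternatives, though its size fell from -2.56 to -0.57 as a mean per annotated transcript and to -0.89 against all non-coding isoforms. None of these alternatives took Cflar-204, which holds intron bases, out of the coding class. Genes called for retained-intron and for coding isoforms numbered 1989 and 1784, and became 3200 (retained-intron) with the second transcript table, 1117 (coding) at a mean summed TPM of at least 5, and 1292 and 3172 with summed expected counts. In the second transcript table Tradd turned to 0.15 and the long-to-short log2 ratio of Cflar rose to 1.07.

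Genes called higher in the second table and in the gene table numbered 7077 and 7154, and became 3848 and 3800 at 1 TPM or more in both tables, 11689 and 11096 with no filter, and 16104 and 211 without centring. The centred log2 difference of the second table from the gene table turned positive for Cflar (0.013), Tradd (0.32), Casp9 (0.35) and Xiap (0.029) at 1 TPM or more in both tables. With no filter it was 0.10 for Cflar, 0.40 for Tradd, 0.43 for Casp9 and 0.11 for Xiap. Without centring it was 0.57 for Cflar, 0.10 for Fadd, 0.88 for Tradd, 0.91 for Casp9 and 0.59 for Xiap. For Casp9 it was 0.026 with 0.1 TPM added, and ran from -0.27 to 0.043 when 1 library was left out. The median that was subtracted was 0.99, and 0.56 at 1 TPM or more in both tables, 0.48 with no filter and 1.33 with 0.1 TPM added. The centred calls of Cflar and Xiap were lost without replicate 2 (adjusted p = 0.152 and 0.0903 by limma) and without replicate 3 (0.244 and 0.128).

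No paired analysis was possible because the series has 1 group. Depth limits the adaptors and caspases, which had 10 to 80 counts per library, and differences among them within the counting intervals were not detectable. Isoform values rest on how each quantifier divided shared reads. Isoforms that hold intron bases cannot be told apart from unspliced RNA in these data. No effect of Lipid A can be read from 1 group.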
